A study of Homo sapiens with 9 samples.

Results

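The genes described here are 30 genes of the G1/S transition and of DNA replication, chosen by name, among the 11963 genes measured by the arrays. They comprise 9 helicase genes (MCM2 to MCM7, CDC45, GINS1 and GINS2), 3 licensing genes (ORC1, CDC6 and GMNN) and 2 genes of G1/S control (CCNE2 and E2F1). A further 4 encode the sliding clamp and its loader (PCNA, RFC2, RFC3 and RFC4), 3 encode polymerase and primase subunits (POLA1, POLE2 and PRIM1) and 4 make deoxynucleotides (RRM1, RRM2, TYMS and TK1). The remaining genes are UNG and FEN1, of base excision and flap removal, and CHAF1A, SLBP and HELLS, of chromatin and histone supply. Each gene was read from the probe set, among those with exactly 1 gene symbol, that had the highest mean over the 9 arrays. All 30 genes had such a probe set, and the 16 further probe sets of 13 genes served as a check.

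Transcripts were measured on Affymetrix arrays in U251, an established line from a human glioma, in 3 groups of 3 arrays. The first group received an siRNA directed at WT1 in the transfection reagent Oligofectamine. The second received a scrambled siRNA, meant to target no gene, in the same reagent, and the third the reagent alone. The siRNAs were bought from Dharmacon and used at 100 nM, so every group had met the reagent and none was untreated. The design describes biological triplicates and the protocol describes wells in triplicate, and the arrays carry the replicate numbers 1, 2 and 3 in each group. The sources used here do not give what a number stands for. Levels are log2 values, so a difference of −1 is a halving, and for arrays their number limits the precision.

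DNA replication is prepared in G1, when ORC1 and CDC6 help load the MCM2 to MCM7 helicase ring onto origins, a step that geminin (GMNN) blocks later in the cycle. At the G1/S transition cyclin E with CDK2 and the release of E2F factors from the retinoblastoma protein switch on the genes of replication, and many of the genes described here are textbook E2F targets. Their transcripts are abundant in dividing cells and low in resting ones. WT1 is a zinc finger transcription factor first known from Wilms tumour of the kidney.

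The promoters of the 3 genes that passed the test below are shown because the E2F site is the best known sequence feature that promoters of such genes share. The sequences are from RefSeq on GRCh38.p14 and hold the 250 bases before an annotated start, in the direction of the gene. Capitals mark matches to any of 4 E2F letter strings (TTTCCCGC, TTTCGCGC, TTTGCCGC and TTTGGCGC, searched on both strands). MCM6 is read from the minus strand at chr2:135876444-135876693 and holds 4 matches that overlap in 2 stretches. TYMS lies on the plus strand at chr18:657403-657652 and UNG on the plus strand at chr12:109097922-109098171, with 1 match each. UNG has 2 windows, and the other held no match.
MCM6: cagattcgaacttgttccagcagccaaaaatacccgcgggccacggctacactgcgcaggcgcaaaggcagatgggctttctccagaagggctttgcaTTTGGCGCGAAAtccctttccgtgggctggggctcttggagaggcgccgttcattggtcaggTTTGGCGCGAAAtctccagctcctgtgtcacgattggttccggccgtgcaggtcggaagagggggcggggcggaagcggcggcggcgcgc
TYMS: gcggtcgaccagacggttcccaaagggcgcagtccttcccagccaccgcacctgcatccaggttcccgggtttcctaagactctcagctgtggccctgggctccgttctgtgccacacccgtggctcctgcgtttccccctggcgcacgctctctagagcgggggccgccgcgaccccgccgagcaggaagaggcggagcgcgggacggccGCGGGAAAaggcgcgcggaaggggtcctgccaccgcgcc
UNG: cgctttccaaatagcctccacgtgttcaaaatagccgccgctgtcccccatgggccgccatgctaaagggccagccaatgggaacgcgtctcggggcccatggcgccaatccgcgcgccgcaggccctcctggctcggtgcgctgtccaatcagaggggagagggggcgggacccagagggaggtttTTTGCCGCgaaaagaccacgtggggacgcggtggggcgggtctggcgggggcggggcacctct

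In the RefSeq windows, which run on 50 bases past the start, at least 1 of these strings occurred in 3.31% of 35116 windows. It occurred in 6.08% of the 9563 measured genes with a window and in 16 of the 27 replication genes with one (59.3%). These 16 were MCM2, MCM3, MCM6, MCM7, GINS1, GINS2, CDC6, GMNN, E2F1, PCNA, RFC3, POLA1, POLE2, TYMS, UNG and HELLS. Letter strings of the WT1 and EGR family site (GCGTGGGCG, GCGGGGGCG and GCGTGGGAG, both strands) occurred in 12.3% of measured genes with a window and in 1 of the 27, UNG. MCM4, MCM5 and CCNE2 are named without a sequence. A match is a string of letters and was not tested for binding.

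The targeted gene was checked first. At its brighter probe set WT1 read 4.76, 5.09 and 4.82 with the WT1 siRNA, 5.59, 5.89 and 5.41 with the scrambled siRNA and 6.05, 6.58 and 5.89 with reagent alone, in replicate numbers 1, 2 and 3. The groups did not overlap, though the highest scrambled and the lowest reagent array nearly met, and the scrambled arrays lay between the other groups. WT1 was dim throughout, brighter than 18.4% to 51.8% of probe sets on the same array. With its siRNA it read within the 4.76 to 5.29 of APOA1, a liver gene, so it was not shown to be above background there, and the percentages that follow are of signal and do not measure the transcript left. Within replicate numbers the signal fell to 41.0% of reagent with the WT1 siRNA (log2 difference −1.29, SE 0.0811, limma adjusted p = 0.000619). Against the scrambled siRNA it fell to 60.0% (−0.74, limma adjusted p = 0.00336), and the scrambled siRNA itself stood at 68.4% of reagent (−0.55, adjusted p = 0.0164). None of these calls held in a fit with no term for the replicate number (adjusted p = 0.394, 0.672 and 1.00 in that order). The dimmer WT1 probe set did not pass in any comparison.

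Astroglial and glioma markers VIM, NES and CD44 were bright on all arrays. Others were not, with S100B brighter than 12.8% to 36.5% of probe sets, CHI3L1 than 39.5% to 46.7% and GFAP than 31.9% to 85.3%. Of the 9 astroglial and glioma markers, 2 passed a test. SLC1A3, a glial glutamate transporter, read 7.90, 8.22 and 7.78 with the WT1 siRNA, 8.64, 8.92 and 8.46 with the scrambled siRNA and 8.10, 8.42 and 8.04 with reagent alone. The scrambled arrays were above all others. SLC1A3 fell with the WT1 siRNA against the scrambled siRNA (−0.70, limma adjusted p = 0.000859) and rose with the scrambled siRNA against reagent (0.49, adjusted p = 0.00641). SOX2, a transcription factor of neural progenitors, read 9.09, 7.79 and 8.98 with the WT1 siRNA, 8.24, 7.15 and 8.20 with the scrambled siRNA and 8.49, 7.61 and 8.67 with reagent alone. The groups overlapped, the WT1 siRNA array was the highest of each number, and SOX2 rose with the WT1 siRNA against the scrambled siRNA (0.75, adjusted p = 0.00282). The part of these markers in the results below was not tested.

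Markers of epithelial cells, leukocytes, hepatocytes, endothelium and neurons, 12 of 13 of them measured, passed the test in no comparison. Their levels summed to a log2 of 9.63 to 9.85 with the WT1 siRNA, 9.73 to 9.87 with the scrambled siRNA and 9.60 to 9.70 with reagent alone. EPCAM, CDH1, PTPRC, ALB and CDH5 were brighter than at most 17.5% of probe sets on any array. Others of the list were not dim, with KRT8 brighter than 59.3% to 73.3%, SYT1 than 63.0% to 74.9%, SNAP25 than 48.5% to 53.3% and CD3E than 45.8% to 50.9%. The tests throughout are those of limma over 22215 probe sets with the replicate number as a block, so that groups are compared within numbers, and a gene is said to fall or rise where its adjusted p was under 0.05. The siRNA groups were set against the same 3 reagent arrays. In RNA from whole cultures, fewer cells in S phase and less transcript per cell cannot be told apart.

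With the WT1 siRNA, the replication genes lay below their level with reagent alone almost throughout. The log2 difference was below 0 for 27 of 30 genes, against 46.1% of all genes, and its median was −0.17, against 0.01 over all genes. The shift was small for most genes, with quartiles of −0.28 and −0.08. TYMS, MCM6 and UNG fell, and no gene rose, which is 3 of 30 lower where 1.02% of all genes were called lower and 0.376% higher. The 30 genes were each brighter than at least 60.8% of probe sets, while all genes include dim ones. With probe sets of a mean log2 under 6 left out, 357 of 12775 were called in either direction, against 277 of all 22215. At an unadjusted p under 0.05, 17 of the 30 were lower and none higher, where 8.85% of all genes were lower. With TYMS, MCM6 and UNG set aside, the median of the other 27 was −0.15, and 24 lay below 0.

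TYMS encodes thymidylate synthase, which makes the thymidine nucleotide for DNA from deoxyuridine monophosphate and is the target of fluorouracil. It read 11.45, 11.17 and 11.90 with the WT1 siRNA, 12.31, 12.30 and 12.45 with the scrambled siRNA and 12.41, 12.41 and 12.54 with reagent alone. All 3 arrays with the WT1 siRNA lay below all 6 others, and the array of number 2 was the lowest. TYMS fell to 52.0% of the reagent level (log2 difference −0.94, SE 0.106, 95% interval −1.18 to −0.70, limma adjusted p = 0.00786). The difference was −0.95, −1.24 and −0.64 in numbers 1, 2 and 3. A second TYMS probe set, which read 5.61, 5.35 and 5.47 with the WT1 siRNA, 5.50, 5.50 and 5.53 with the scrambled siRNA and 5.53, 5.73 and 5.60 with reagent alone, did not pass. Its difference from reagent was −0.15 (adjusted p = 0.447). That probe set was dim, brighter than 31.7% to 38.7% of probe sets on the same array. It was not shown to be above background, so it is a weak check of the brighter one. ENOSF1, which overlaps TYMS on the opposite strand, is not analysed here.

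MCM6 is a subunit of the ring that unwinds DNA ahead of the fork. It read 9.56, 9.14 and 9.79 with the WT1 siRNA, 10.01, 9.99 and 10.09 with the scrambled siRNA and 10.13, 10.16 and 10.23 with reagent alone. The groups did not overlap, and as for TYMS the lowest array was number 2 with the WT1 siRNA. MCM6 fell to 62.6% of the reagent level (−0.68, SE 0.104, limma adjusted p = 0.0207), with differences of −0.58, −1.02 and −0.44 in the 3 numbers. Its SD with the WT1 siRNA was 0.329, against 0.054 with the scrambled siRNA and 0.0515 with reagent alone (n = 3 each).

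UNG encodes the glycosylase that cuts uracil out of DNA, where it arrives by misincorporation or by deamination of cytosine. It read 9.20, 9.57 and 9.56 with the WT1 siRNA, 9.12, 9.64 and 9.77 with the scrambled siRNA and 9.41, 10.00 and 10.15 with reagent alone. Number 1 was low in every group, so the groups overlapped as a whole, while within each number both siRNA arrays lay below the reagent array. In number 1 the scrambled array was the lowest, and in numbers 2 and 3 the WT1 siRNA array was. UNG fell to 75.3% of the reagent level with the WT1 siRNA (−0.41, SE 0.0757, limma adjusted p = 0.0375), by 0.21, 0.43 and 0.59 in the 3 numbers.

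These calls rest on the comparison within numbers. With no term for the replicate number the count of replication genes called was 0 rather than 3, with adjusted p = 0.394 for TYMS, 0.76 for MCM6 and 1.00 for UNG, and without the arrays of number 2 it was also 0. UNG was called in 6 of 19 alternative fits, TYMS in 15 and MCM6 in 13.

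**Figure D1:**
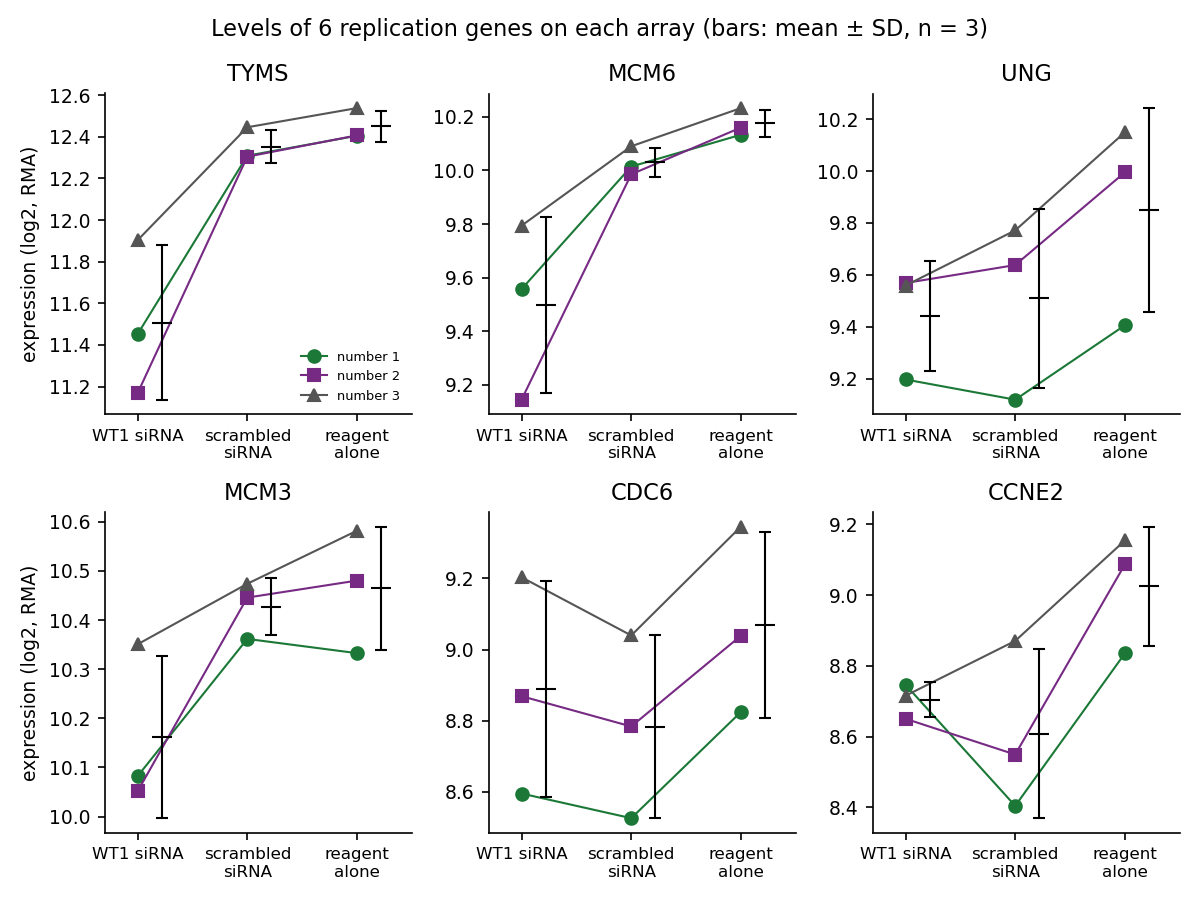
Expression (log2, RMA; y axis, a separate range in each panel) of TYMS, MCM6, UNG, MCM3, CDC6 and CCNE2 on each of 9 arrays, with groups on the x axis, lines joining arrays of the same replicate number, and black bars for the group mean ± SD (n = 3). TYMS and MCM6 with the WT1 siRNA lay below both other groups on every array, while in UNG and CDC6 the arrays of number 1 were the lowest of their group.

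Of the other helicase genes, MCM3 read 10.08, 10.05 and 10.35 with the WT1 siRNA, 10.36, 10.45 and 10.47 with the scrambled siRNA and 10.33, 10.48 and 10.58 with reagent alone. Number 3 with the WT1 siRNA reached into the reagent range, and in each number the WT1 siRNA array was the lowest. Its difference from reagent was −0.30 (SE 0.0675, limma adjusted p = 0.0697). MCM5 read 9.13, 8.78 and 9.64 with the WT1 siRNA, 9.21, 8.91 and 9.66 with the scrambled siRNA and 9.30, 9.26 and 9.81 with reagent alone. Its groups overlapped, and in each number the order was the same, with reagent highest. Its difference from reagent was −0.27 (adjusted p = 0.119), with −0.32 at its second probe set. MCM2, MCM4, CDC45, GINS1 and GINS2 had differences from −0.19 to −0.06, while MCM7 stood at 0.04. Over the 9 helicase genes the median was −0.17, 8 lay below 0 and 1 passed, where 46.1% of all genes lay below 0 and 1.02% were called lower.

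Among the clamp and loader genes all 4 lay below 0, against 46.1% of all genes, with a median of −0.22 and no call. RFC4, a subunit of the complex that opens PCNA and closes it round DNA, read 9.85, 10.04 and 10.32 with the WT1 siRNA, 9.88, 10.21 and 10.36 with the scrambled siRNA and 10.07, 10.47 and 10.52 with reagent alone. Number 1 was low in every group, and reagent was the highest array in each number. The difference from reagent was −0.28 (limma adjusted p = 0.0742). PCNA, the sliding clamp that holds polymerases on DNA, read 11.43, 11.28 and 11.44 with the WT1 siRNA, 11.41, 11.55 and 11.76 with the scrambled siRNA and 11.53, 11.68 and 11.72 with reagent alone. The WT1 siRNA and reagent arrays did not overlap, and the difference was −0.26 (adjusted p = 0.149).

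The polymerase and primase genes had the lowest median of the groups, −0.29 over 3 genes, again with no call. POLA1, the catalytic subunit of the polymerase that starts new strands, read 8.003, 7.88 and 7.85 with the WT1 siRNA, 7.97, 8.09 and 8.01 with the scrambled siRNA and 8.09, 8.33 and 8.21 with reagent alone. All reagent arrays lay above all others, and the difference between WT1 siRNA and reagent was −0.30 (limma adjusted p = 0.0959). POLE2, an accessory subunit of the leading strand polymerase, read 8.10, 7.81 and 8.02 with the WT1 siRNA, 8.34, 8.20 and 8.09 with the scrambled siRNA and 8.24, 8.20 and 8.37 with reagent alone. Every WT1 siRNA array lay below every reagent array, with a difference of −0.29 (adjusted p = 0.129). PRIM1, which lays the RNA primer, had a difference of −0.17.

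CCNE2, a cyclin E that activates CDK2, read 8.75, 8.65 and 8.72 with the WT1 siRNA, 8.40, 8.55 and 8.87 with the scrambled siRNA and 8.84, 9.09 and 9.15 with reagent alone. The arrays with the WT1 siRNA lay close together and below all reagent arrays, while the scrambled arrays fell on both sides of them. The difference between WT1 siRNA and reagent was −0.32 (limma adjusted p = 0.135). E2F1, which encodes an activating E2F factor, differed by −0.09. The licensing genes CDC6, GMNN and ORC1 differed by −0.18, −0.11 and −0.07. The other nucleotide genes stayed nearer to 0 than TYMS, with −0.11 for TK1, the salvage thymidine kinase, and −0.07 and −0.06 for the ribonucleotide reductase subunits RRM1 and RRM2. HELLS, a chromatin remodeller, and SLBP, which binds the stem-loop of histone mRNAs, differed by −0.21 and −0.15. FEN1, the flap nuclease, and CHAF1A, of the chromatin assembly factor, were at 0.01 each. None of these passed.

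In 8 of the 30 genes the 3 WT1 siRNA arrays lay wholly below the 3 reagent arrays, where 3.19% of all genes did so (MCM2, MCM6, CCNE2, PCNA, POLA1, POLE2, TYMS and SLBP). In 19 the WT1 siRNA array was lower in 3 of 3 numbers, against 17.4% of all genes. The median difference was −0.09 in number 1, −0.25 in number 2 and −0.16 in number 3. The 3′ minus 5′ log2 difference of the ACTB control, a measure of RNA integrity, was 0.08, 0.55 and 0.26 with the WT1 siRNA and 0.09, 0.62 and 0.50 with reagent alone in numbers 1, 2 and 3. It was lower with the WT1 siRNA in each number, most of all in number 3. That of GAPDH was −0.006, 0.18 and 0.11 with the WT1 siRNA and −0.02, 0.16 and 0.099 with reagent alone, higher with the WT1 siRNA in each number. Their part in the result was not tested.

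**Figure D2:**
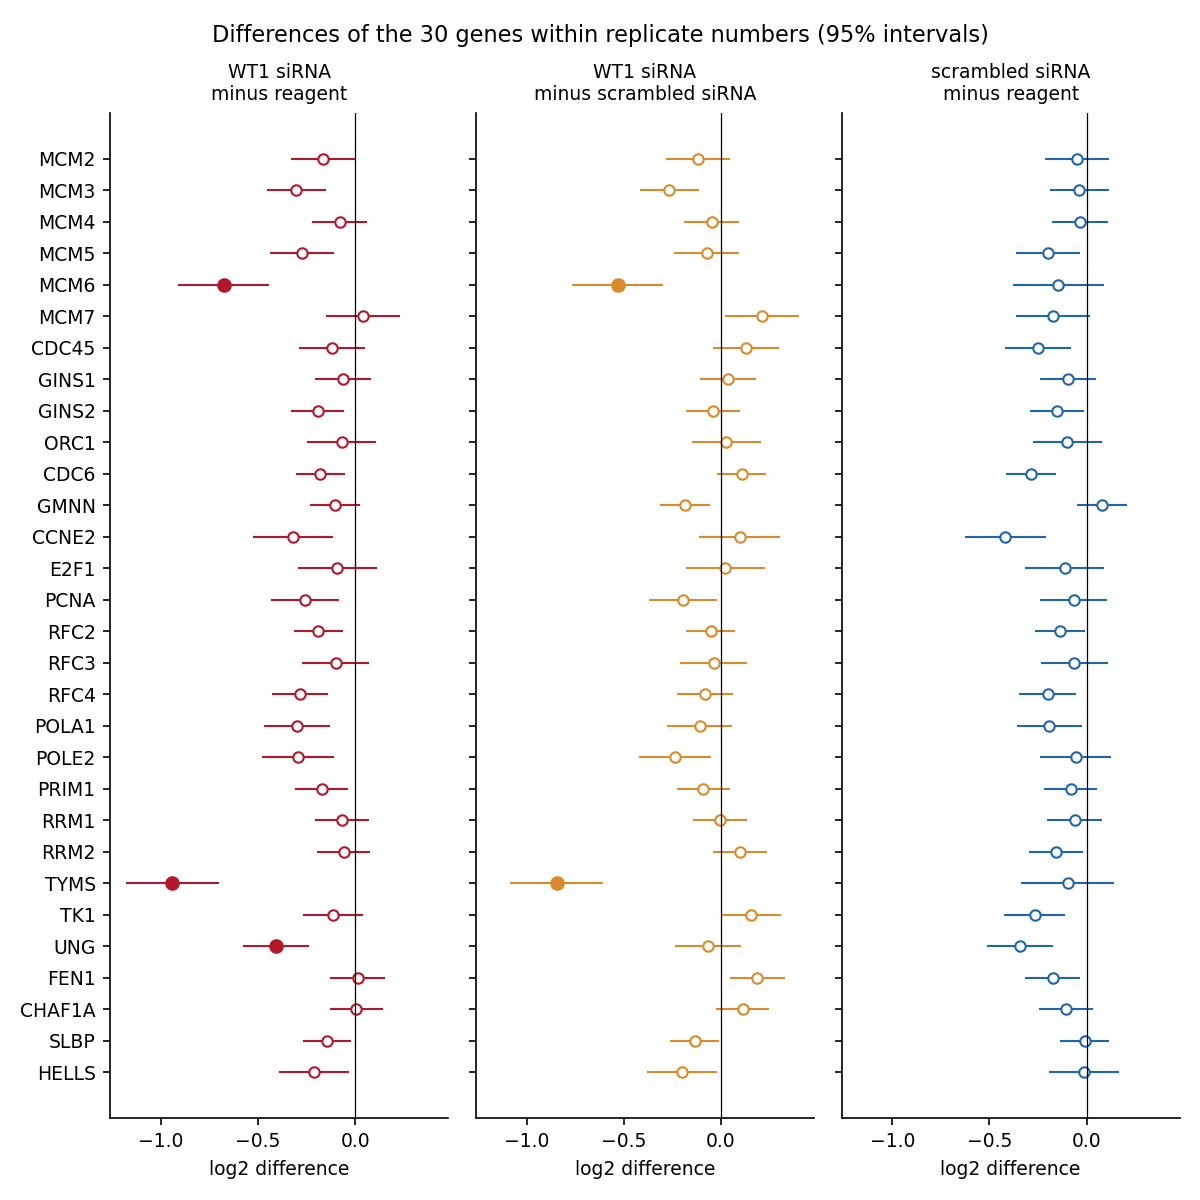
Log2 difference (x axis) of each of the 30 genes (y axis) with its 95% interval, for WT1 siRNA minus reagent, WT1 siRNA minus scrambled siRNA and scrambled siRNA minus reagent from left to right. Filled points passed at an adjusted p under 0.05, which were 3, 2 and 0 genes, and 27, 19 and 29 of 30 points lay below 0.

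The comparison with the scrambled siRNA sets the WT1 siRNA against a culture that also received an siRNA, and it is the direct test of whether the siRNA groups differ. TYMS and MCM6 fell, and no gene rose, so that 2 of 30 were lower where 2.32% of all genes were called lower and 1.39% higher. Dim probe sets were called less often, and none of the 30 was dim. With probe sets of a mean log2 under 6 left out, 877 of 12775 were called in either direction, against 726 of all 22215. The 2 calls are therefore not read as an excess over expressed genes. Of the genes as a whole, 19 of 30 lay below 0, against 50.6% of all genes. The median was −0.05, against −0.00155 over all genes. At an unadjusted p under 0.05, 8 were lower and 2 higher, where 10.4% of all genes were lower. The median was 0.005 in number 1, −0.11 in number 2 and −0.05 in number 3, and without TYMS, MCM6 and UNG it was −0.04 over 27 genes.

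TYMS with the WT1 siRNA fell to 55.6% of its level with the scrambled siRNA (log2 difference −0.85, SE 0.106, 95% interval −1.08 to −0.61, limma adjusted p = 0.00553), by 0.86, 1.14 and 0.54 in the 3 numbers. MCM6 fell to 69.2% (−0.53, SE 0.104, adjusted p = 0.0288), by 0.46, 0.84 and 0.30. Both were lower on every array with the WT1 siRNA than on any scrambled array, as their values above show. The second TYMS probe set differed by −0.04 (adjusted p = 0.891). UNG, called against reagent, differed from the scrambled siRNA by −0.07 (95% interval −0.24 to 0.10, adjusted p = 0.745). With no term for the replicate number the count was 0, with adjusted p = 0.347 for TYMS and 0.735 for MCM6, and it was also 0 without scrambled replicate 2 or without the arrays of number 2.

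MCM3, with the arrays given above, lay below the scrambled siRNA on every WT1 siRNA array, at −0.27 (SE 0.0675, limma adjusted p = 0.0704). GMNN, the inhibitor of licensing, read 10.31, 10.44 and 10.35 with the WT1 siRNA, 10.46, 10.65 and 10.55 with the scrambled siRNA and 10.42, 10.49 and 10.51 with reagent alone. The scrambled array was the highest in each number, and the WT1 siRNA arrays lay below all scrambled arrays, with a difference of −0.18 (adjusted p = 0.136). POLE2 differed by −0.24 (adjusted p = 0.181) and PCNA by −0.19 (adjusted p = 0.253). HELLS read 8.05, 8.40 and 8.35 with the WT1 siRNA, 8.25, 8.68 and 8.46 with the scrambled siRNA and 8.08, 8.67 and 8.69 with reagent alone. The groups overlapped, number 1 was the lowest of each, and the difference from the scrambled siRNA was −0.20 (adjusted p = 0.251).

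Some replication genes lay on the other side of the scrambled siRNA. FEN1 read 10.08, 10.20 and 10.12 with the WT1 siRNA, 9.77, 10.02 and 10.04 with the scrambled siRNA and 9.97, 10.18 and 10.22 with reagent alone. Every WT1 siRNA array lay above every scrambled array, with a difference of 0.19 (SE 0.0633, limma adjusted p = 0.168). At its second probe set the difference was 0.27 (adjusted p = 0.0627). MCM7 read 10.17, 9.66 and 10.47 with the WT1 siRNA, 9.94, 9.52 and 10.22 with the scrambled siRNA and 9.98, 9.90 and 10.31 with reagent alone. Its groups overlapped, number 2 was the lowest in each, and the difference from the scrambled siRNA was 0.21 (adjusted p = 0.256). In all, 7 genes were higher with the WT1 siRNA than with the scrambled siRNA in 3 of 3 numbers (MCM7, CDC45, CDC6, RRM2, TK1, FEN1 and CHAF1A), where 16.4% of all genes were higher. Another 12 were lower in 3 of 3, where 20.1% of all genes were lower. The arrays did not overlap for 5 lower genes (MCM3, MCM6, GMNN, TYMS and SLBP, against 3.80% of all genes) and 1 higher gene (FEN1, against 3.16%).

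The scrambled siRNA was set against reagent alone to show how the genes stood with an siRNA meant to have no target. Effects of its own sequence and of siRNA in general cannot be told apart here. No replication gene passed, where 0.568% of all genes were called lower and 0.644% higher. The smallest limma adjusted p among the 30 was 0.05004, for CDC6, just above the threshold. In the fit with no term for the number the count was 0 too. The genes nevertheless lay to 1 side: 29 of 30 were below 0, against 44.3% of all genes, with a median of −0.11, against 0.01 over all genes. At an unadjusted p under 0.05, 12 were lower and none higher, where 6.32% of all genes were lower, and 22 were lower in 3 of 3 numbers, against 17.4%. The median was −0.07, −0.14 and −0.15 in numbers 1, 2 and 3. GMNN alone lay above 0, at 0.08, and TYMS and MCM6 stood at −0.10 and −0.15 (adjusted p = 0.82 and 0.67).

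CDC6, which with ORC1 loads the helicase at origins, read 8.60, 8.87 and 9.20 with the WT1 siRNA, 8.53, 8.78 and 9.04 with the scrambled siRNA and 8.82, 9.04 and 9.35 with reagent alone. In every group number 3 was the highest and number 1 the lowest, and in every number the scrambled array was the lowest and the reagent array the highest. The scrambled siRNA stood at 82.0% of reagent (log2 difference −0.29, SE 0.0562, limma adjusted p = 0.05004), with −0.30, −0.25 and −0.31 in the 3 numbers and −0.28 at its second probe set. It was called in 7 of 19 alternative fits. CCNE2, with the arrays given above, had the greatest difference of the 30, at 74.8% of reagent (−0.42, SE 0.0921, adjusted p = 0.0715). Its second probe set passed (−0.45, adjusted p = 0.0444). That probe set read 7.85, 7.21 and 7.25 with the scrambled siRNA and 8.09, 7.67 and 7.88 with reagent alone.

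UNG stood at 79.0% of reagent with the scrambled siRNA (−0.34, SE 0.0757, limma adjusted p = 0.0732), beside 75.3% with the WT1 siRNA. TK1 read 9.21, 8.74 and 9.21 with the WT1 siRNA, 9.005, 8.57 and 9.13 with the scrambled siRNA and 9.22, 8.995 and 9.30 with reagent alone. Number 2 was the lowest and the scrambled array was the lowest of each number, with a difference from reagent of −0.27 (adjusted p = 0.123). CDC45, which joins the MCM ring in the active helicase, read 8.31, 7.93 and 8.22 with the WT1 siRNA, 8.25, 7.85 and 7.96 with the scrambled siRNA and 8.30, 8.18 and 8.33 with reagent alone. Its scrambled array was again the lowest of each number (−0.25, adjusted p = 0.188), and RFC4 stood at −0.20 (adjusted p = 0.226). The arrays did not overlap for 3 genes, MCM2, MCM6 and POLA1, where 2.72% of all genes were lower in this way.

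**Figure D3:**
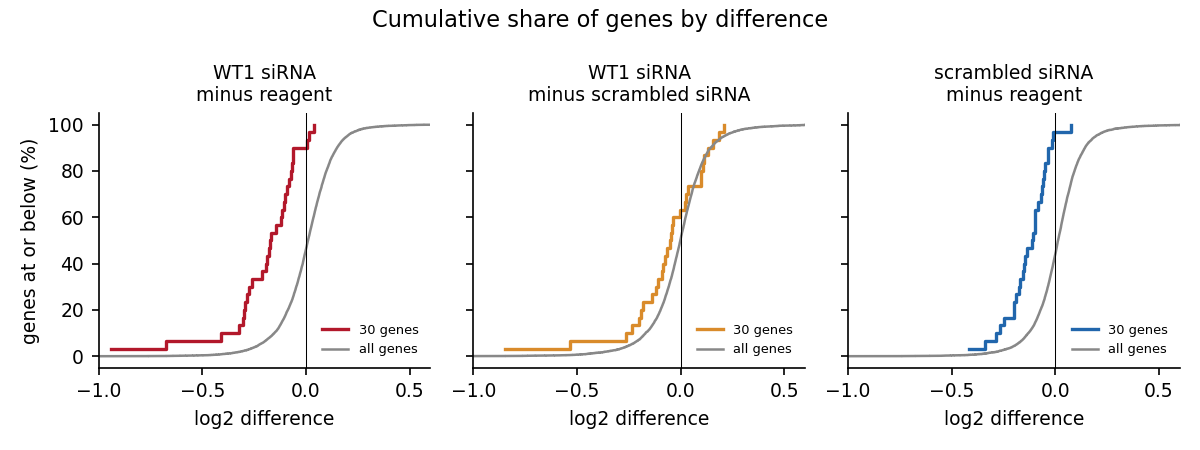
Cumulative share (%, y axis) of the 30 genes (coloured steps) and of all 11963 genes (grey) at or below each log2 difference (x axis, cut at −1 and 0.6), for WT1 siRNA minus reagent, WT1 siRNA minus scrambled siRNA and scrambled siRNA minus reagent. The steps stand left of the grey curve in both comparisons with reagent (medians −0.17 and −0.11, against 0.01 for all genes). Between the siRNAs they stand nearer to it (median −0.05), with TYMS and MCM6 at the far left.

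Set side by side, the differences of a gene from reagent had unlike patterns. TYMS differed by −0.94 with the WT1 siRNA and by −0.10 with the scrambled siRNA, MCM6 by −0.68 and −0.15, and MCM3 by −0.30 and −0.04. CDC6 differed by −0.18 with the WT1 siRNA and by −0.29 with the scrambled siRNA, CCNE2 by −0.32 and −0.42, and UNG by −0.41 and −0.34. The test of each such pair is the comparison between the siRNAs, which passed for TYMS and MCM6 and not for MCM3, CDC6, CCNE2 or UNG. By role, the medians against the scrambled siRNA were −0.11 for polymerase and primase genes, −0.07 for clamp and loader genes and −0.05 for helicase genes. They were −0.14 for chromatin and histone genes and 0.06 for UNG and FEN1. They were 0.03 for licensing genes, 0.05 for nucleotide genes despite TYMS, and 0.06 for G1/S control.

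Genes with and without E2F letters in their window can be set side by side as a description. Against reagent, the 16 genes with a match had a median of −0.20 with the WT1 siRNA, 15 of them below 0 and 3 called. The 11 without had a median of −0.11, 9 of them below 0 and none called. Of all genes, 46.1% lay below 0 and 1.02% were called lower. Against the scrambled siRNA the medians were −0.11 with a match and 0.03 without, with 12 and 5 genes below 0, where 50.6% of all genes lay. Between scrambled siRNA and reagent the medians were −0.10 with a match and −0.14 without, with 15 and 11 genes below 0, where 44.3% of all genes lay. TYMS, MCM6 and UNG, whose windows are printed above, are all among the 16, which make up 59.3% of the 27 genes with a window. A link between the letters and the differences was not tested.

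The 16 further probe sets had the sign of the brighter one in 15 cases for WT1 siRNA minus reagent, 15 for WT1 siRNA minus scrambled siRNA and 13 for scrambled siRNA minus reagent. They differed from it by a median of 0.0587, 0.0388 and 0.0433 on the log2 scale in that order. The greatest gaps, 0.796 and 0.809, were those of TYMS in both comparisons of the WT1 siRNA. Its second probe set was brighter than at most 38.7% of probe sets on any array. MCM6, UNG and MCM3 had 1 probe set each, so their values have no such check.

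Other genes of the same processes were taken from lists set out beside the 30. Of 41 other replication genes, 39 were measured. With the WT1 siRNA against reagent, 33 of them lay below 0, against 46.1% of all genes, with a median of −0.12. RPA2 and RFC1 fell, where 1.02% of all genes were called lower. Against the scrambled siRNA, 22 of the 39 lay below 0, against 50.6% of all genes, with a median of −0.04. There 1 was called lower and 1 higher, where 2.32% and 1.39% of all genes were. Between scrambled siRNA and reagent, 30 lay below 0, against 44.3% of all genes, with a median of −0.08. In that comparison 1 was called lower, where 0.568% of all genes were. RPA2, a subunit of the protein that coats single-stranded DNA, read 8.91, 9.07 and 9.16 with the WT1 siRNA, 9.49, 9.46 and 9.47 with the scrambled siRNA and 9.42, 9.54 and 9.38 with reagent alone. The WT1 siRNA arrays lay below all others. RPA2 fell to 75.7% of reagent (−0.40, limma adjusted p = 0.0366) and to 74.3% of the scrambled siRNA (−0.43, adjusted p = 0.0179). RFC1, the large subunit of the clamp loader, read 8.51, 8.66 and 8.71 with the WT1 siRNA, against 8.82, 9.15 and 8.96 with reagent alone. It fell against reagent (−0.35, adjusted p = 0.0366) and did not pass against the scrambled siRNA.

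DTL, which guides a ubiquitin ligase that removes the licensing factor CDT1 in S phase, was lowest with the scrambled siRNA. It read 9.52, 9.91 and 9.68 with the WT1 siRNA, 8.98, 9.31 and 9.23 with the scrambled siRNA and 9.31, 9.80 and 9.71 with reagent alone. The scrambled array was the lowest of each number. DTL rose with the WT1 siRNA against the scrambled siRNA (0.53, limma adjusted p = 0.00519) and fell with the scrambled siRNA against reagent (−0.43, adjusted p = 0.0173). CDK2, the kinase partner of cyclin E, likewise read 9.89, 9.64 and 9.59 with the WT1 siRNA, 9.55, 9.19 and 9.06 with the scrambled siRNA and 9.84, 9.56 and 9.55 with reagent alone. It rose with the WT1 siRNA against the scrambled siRNA (0.44, adjusted p = 0.00751) and fell with the scrambled siRNA against reagent (−0.38, adjusted p = 0.0221).

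Among all 22 G1/S regulators, the WT1 siRNA against reagent gave a median of −0.06, with 14 below 0, against 46.1% of all genes. Of them 1 fell, where 1.02% of all genes were called lower: E2F8, an E2F factor that represses. It read 7.31, 6.98 and 7.74 with the WT1 siRNA, 7.48, 7.73 and 8.41 with the scrambled siRNA and 7.54, 7.98 and 8.46 with reagent alone. The groups overlapped, the WT1 siRNA array was the lowest of each number, and E2F8 fell against reagent (−0.65, limma adjusted p = 0.0423). Against the scrambled siRNA the median of the 22 was −0.02, with 13 below 0, against 50.6% of all genes. There 1 was called lower and 2 higher, where 2.32% and 1.39% of all genes were. Between scrambled siRNA and reagent the median was −0.01, with 12 below 0, against 44.3%, and 1 called lower, against 0.568%. CDK6, a cyclin D kinase, read 7.67, 7.26 and 7.0004 with the WT1 siRNA, 7.26, 6.96 and 6.68 with the scrambled siRNA and 7.66, 7.22 and 6.77 with reagent alone. Its groups overlapped, and it rose with the WT1 siRNA against the scrambled siRNA (0.34, adjusted p = 0.0313). CDC25A, the phosphatase that activates CDK2, read 7.48, 7.95 and 8.03 with the WT1 siRNA, 7.94, 8.40 and 8.22 with the scrambled siRNA and 7.86, 8.18 and 8.15 with reagent alone. Its groups overlapped too, and it fell with the WT1 siRNA against the scrambled siRNA (−0.36, adjusted p = 0.0287).

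Of 35 genes of G2 and mitosis none passed in any comparison. Their medians were −0.08 for WT1 siRNA minus reagent, 7.26e-05 for WT1 siRNA minus scrambled siRNA and −0.10 for scrambled siRNA minus reagent. In that order 31, 17 and 28 of 35 lay below 0, against 46.1%, 50.6% and 44.3% of all genes. Of 12 measured CDK inhibitors and p53 targets, FAS alone passed, in WT1 siRNA minus reagent only, where 1.02% of all genes were called lower. FAS, a death receptor, read 5.63, 5.54 and 5.15 with the WT1 siRNA, 5.93, 5.70 and 5.44 with the scrambled siRNA and 6.08, 6.20 and 5.79 with reagent alone. The WT1 siRNA arrays lay below all reagent arrays, and FAS fell against reagent (−0.58, limma adjusted p = 0.00923). It was dim, brighter than 27.1% to 46.3% of probe sets on the same array. The lists were chosen with earlier results of these data known.

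Between replicate numbers, with the group held fixed, 16 of the 30 genes passed limma's F-test, a share near the 52.1% of all genes that did. Of the sum of squares of the 30 genes, 40.3% lay between groups and 50.7% between numbers, against 16.6% and 70.3% over all genes. Squares were pooled over genes, so TYMS and MCM6, with the greatest gaps between groups (0.94 and 0.68), weigh most in the 40.3%. The share without them was not computed. In 20 of the 30 genes the greatest gap between numbers exceeded the greatest gap between groups. The share of all genes with this order was not counted, so the 20 are not set against it.

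MCM5 averaged 9.21, 8.99 and 9.71 in numbers 1, 2 and 3 (limma F-test adjusted p = 0.000164), CDC6 8.65, 8.90 and 9.20 (0.000184), and UNG 9.24, 9.73 and 9.83 (0.000453). E2F1 stood apart in number 3, at 8.05 against 7.49 and 7.51 in numbers 1 and 2 (0.00126), and its arrays read 7.43, 7.39 and 8.16 with the WT1 siRNA, 7.55, 7.53 and 7.84 with the scrambled siRNA and 7.51, 7.60 and 8.14 with reagent alone. Number 3 was the highest for E2F1 in all 3 groups. MCM6, TYMS, PCNA and CCNE2 did not pass between numbers (adjusted p = 0.119, 0.0563, 0.14 and 0.104).

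Against number 1, number 3 had 13 of the 30 genes higher and 2 lower, with a median difference of 0.19, where 21.8% of all genes were called higher and 17.4% lower. Against number 2 it had 7 higher and none lower, with a median of 0.14, where 11.0% of all genes were called higher and 12.2% lower. Number 2 against number 1 had 6 higher and 7 lower, where 23.7% and 15.5% of all genes were. The 3′ minus 5′ log2 differences of the control transcripts moved with the numbers. That of ACTB was 0.05 to 0.09 in number 1, 0.55 to 0.68 in number 2 and 0.26 to 0.50 in number 3. Its part in the differences between numbers was not tested.

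**Figure D4:**
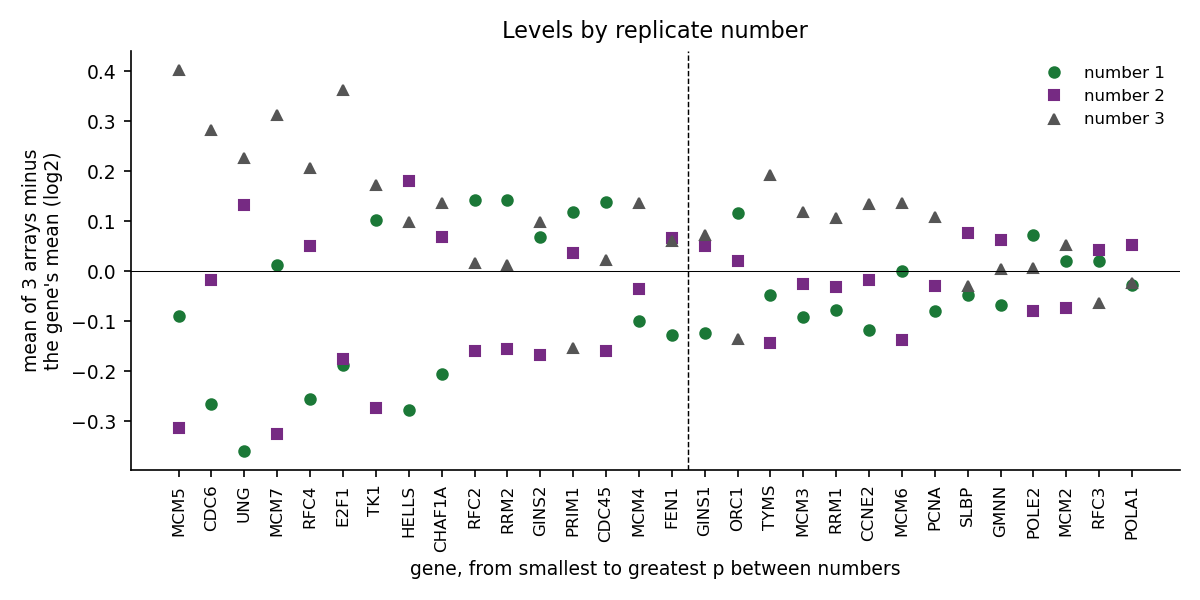
Mean log2 level of the 3 arrays of each replicate number minus the gene's mean over 9 arrays (y axis), for the 30 genes in order of the p between numbers (x axis). The 16 genes left of the dashed line passed the F-test at an adjusted p under 0.05, and number 3 (triangles) was the highest in E2F1, MCM5, CDC6 and UNG.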

How the data were processed

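RNA of 9 samples was measured on 9 arrays. The deposited values are log2 levels per probe set that the authors made with RMA (robust multi-array average), per the submitters' processing notes. The sources used here do not give its version. Of 22277 probe sets, 62 controls were left out. Symbols came from the platform annotation: 19064 probe sets had 1 symbol, 1043 several and 2108 none. Array medians were 6.45 to 6.53, and no arrays were identical.

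Groups and replicate numbers came from the sample titles. Limma 3.58.1 in R 4.3.3 was fitted two-sided to all arrays with a mean per group and the number as a fixed block, and each comparison was adjusted by the Benjamini-Hochberg method over 22215 probe sets (threshold 0.05). Deviations from group means correlated at 0.647 to 0.849 within 9 same-numbered pairs and at −0.611 to −0.031 in 18 others, so the numbers pair the arrays. Where numbers are technical, p-values measure only that spread. The script was tested on simulated data. Members, lists and tests were chosen with earlier results of these data known. Array values are given for replication genes that passed and, per comparison, the next 6 by p, and also for MCM7 and E2F1, chosen after their values were seen. Of other lists, those called are named. Promoters were searched as letters. Alternatives were fits without the block, with a random block, with the compared groups alone, with centred arrays, without dim probe sets, with another variance prior, with gene means and with arrays left out. Figures were drawn with matplotlib 3.10.9.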

Additional observations from a re-analysis of the deposited data

How the results depend on the processing

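The medians of the 30 genes kept their sign in every alternative run, at −0.20 to −0.13 for WT1 siRNA minus reagent, −0.086 to −0.0066 for WT1 siRNA minus scrambled siRNA and −0.16 to −0.084 for scrambled siRNA minus reagent (−0.16 without replicate 1). Counts of genes called depended on the fit. For WT1 siRNA minus reagent (3 called) the count was 0 with no replicate block, 0 with the compared groups alone, 5 with centred arrays and 6 with a trended, robust variance prior. It ranged from 0 to 6 with arrays left out, being 0 without reagent replicate 2 or without number 2, 1 without reagent replicate 1 and 6 without WT1 siRNA replicate 1. For WT1 siRNA minus scrambled siRNA (2 called) it was 0 with no replicate block, 1 with the compared groups alone and 0 to 2 with arrays left out, being 0 without scrambled replicate 2 or without number 2, and 1 without scrambled replicate 1, scrambled replicate 3, WT1 siRNA replicate 2 or number 1. For scrambled siRNA minus reagent (0 called) it was 3 with the compared groups alone, 1 with centred arrays, 1 without dim probe sets (mean log2 under 6), 3 with the trended prior, 2 with gene means and 0 to 3 with arrays left out, being 3 (CDC6, CCNE2 and UNG) without WT1 siRNA replicate 1 or 3. TYMS passed in 15 of 19 alternatives against reagent and in 16 of 19 against scrambled siRNA, with adjusted p up to 0.394 and 0.347. MCM6 passed in 13 and 11, with adjusted p up to 0.76 and 0.735. The count of genes that differed between numbers was 12 to 20. The causes were not tested.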
